A study of Mus musculus with 8 samples.

Results

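The cells described here were Th22-polarized CD4+ T cells from mice lacking Gpr65 (KO) or carrying it (WT), compared across the whole transcriptome. Members were chosen from the cell table deposited with the series: every cell labelled Th22 with at least 500 detected genes. They numbered 51553 of the 53277 deposited Th22 cells and of 104660 deposited cells in all, with 25081 KO and 26472 WT cells. All were splenic CD4+ T cells of female mice aged 10 weeks, and the labels give the strain only as GPR65 for both genotypes. Cells were grown in RPMI medium with serum and harvested at day 3. The Th22 cultures received IL-1b at 20 ng/ml, IL-6 at 40 ng/ml, IL-23 at 20 ng/ml, and 400 nM FICZ, which activates the aryl hydrocarbon receptor (AHR). The Th17 cultures of the same series, used for comparison, received IL-1b at 20 ng/ml, IL-6 at 25 ng/ml and IL-23 at 20 ng/ml, without FICZ. Each genotype had 2 Th22 libraries, called WT1, WT2, KO1 and KO2 below by the replicate number in their labels. Those labels do not say whether a number marks a separate mouse or culture, so p-values reflect only how far these libraries differ from one another, and part of that may be technical.

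Gpr65 encodes a cell surface receptor that is activated by protons outside the cell and signals through Gs, adenylyl cyclase and cyclic AMP (cAMP) to protein kinase A and the transcription factor CREB. Activated T cells acidify their surroundings by exporting lactate and protons, so such receptors can report on the state of the culture itself. Th22 cells are helper T cells defined by the cytokine IL-22, whose transcription in T cells depends on AHR. Th17 cells, made with overlapping cytokines, are defined by IL-17A and IL-17F.

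The Th22 libraries held 15119 (WT1), 11353 (WT2), 10711 (KO1) and 14370 (KO2) kept cells, with medians of 2627, 3679, 4142 and 3669.5 UMIs per cell and between 45871304 and 58895019 UMIs per library. In all, 561 kept cells carried a barcode that another Th22 library also held. A list of 20 T cell receptor and identity genes summed to 7148 to 7425 CPM in each library (UMI counts scaled to a common library total), all 20 being in the matrix. Markers of other cell types were far lower: summed levels were 53.8 in both WT and 37.2 and 39.4 in the KO libraries for 10 B cell genes (2 of them at 0), 149 to 171 for the 10 myeloid genes in the matrix of 16 listed (1 at 0), 16.7 to 34 for natural killer cell genes, and 18.7 to 38.4 for gamma-delta T cell genes. Sums below WT in both KO libraries were those of B cell genes, stromal genes (29.3 and 29.1 in WT against 23.2 and 19.4 in KO) and erythroid genes (0.921 and 1.04 against 0.584 and 0.624, from the 3 of 10 in the matrix, 2 of them at 0). The sum of CD8 T cell genes, from the 6 of 7 in the matrix, was above WT in both, at 18.6 and 23.7 in WT against 25.3 and 38.0 in KO. Their part in the results below was not tested.

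The targeted gene was lost as labelled. Gpr65 (ENSMUSG00000021886, chr12:98268635-98276644, plus strand, GRCm38) was at 56.7 CPM in WT1 and 50.6 in WT2, against 0.887 in KO1 and 0.964 in KO2. The KO libraries still held 41 and 51 Gpr65 UMIs, against 2586 and 2387 in WT. The log2 fold change, KO over WT, came to -5.85 ± 0.13 (SE, edgeR quasi-likelihood test on counts summed per library, adjusted p = 2.09e-06). Among its relatives, Gpr132 had 21.9 and 24.3 CPM in WT and 26.0 and 21.7 in KO, and the groups overlapped. Gpr4, another proton sensor of the family, had 0 UMIs in all 4 libraries, which allows up to 0.0567 to 0.0658 CPM (3 counts per library, counting error only). The proton-gated channel Asic3 (-0.54) did not pass.

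Genes around Gpr65 on chromosome 12 were counted separately. Within 5 Mb on either side, 34 other genes were tested and 0 passed, and 10 of the 34 (29.4%) had an unadjusted p under 0.05, against 11.7% of all genes tested. Of those 10, 5 were higher and 5 lower. Among them were Psmc1, a proteasome ATPase, at 104 and 81.9 CPM in WT and 61.8 and 65.4 in KO, and Ndufb1-ps, at 504 and 519 CPM in WT and 374 and 379 in KO, which had the lowest adjusted p of the window (0.151). These neighbours were named after their values were seen. Within 1 Mb, 0 of 7 tested genes had an unadjusted p under 0.05.

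In KO Th22 cells the cytokine transcripts Il17a and Il24 and those of the membrane proteins Ifitm1 and Ifitm3 were lower, and those of the cysteine-making enzyme Cth, the mitochondrial protease Lonp1 and the T cell receptor adaptor Trat1 were higher. In all, 20 of 13412 tested genes passed at an adjusted p under 0.05, which is 0.149% of them. They were 8 higher genes (0.0596%), of which 1 is a gene model without a name, and 12 lower genes (0.0895%). At an unadjusted p under 0.05 there were 737 higher (5.5%) and 831 lower genes (6.2%). The median log2 fold change over all tested genes was 0.005. The count rested on single libraries: it was 1 without WT1, 4 without WT2, 11 without KO1, 6 without KO2, 5 without either WT Th17 library and 14 without either KO Th17 library, since all 8 libraries of the series share the estimate of spread. DESeq2, which estimates that spread differently, called 144 genes, including all 20. Of the 19 called genes with a name, Gpr65 kept its call in all 22 alternative settings, and none changed sign in any of them. Without WT1 every other call was lost.

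**Figure D1:**
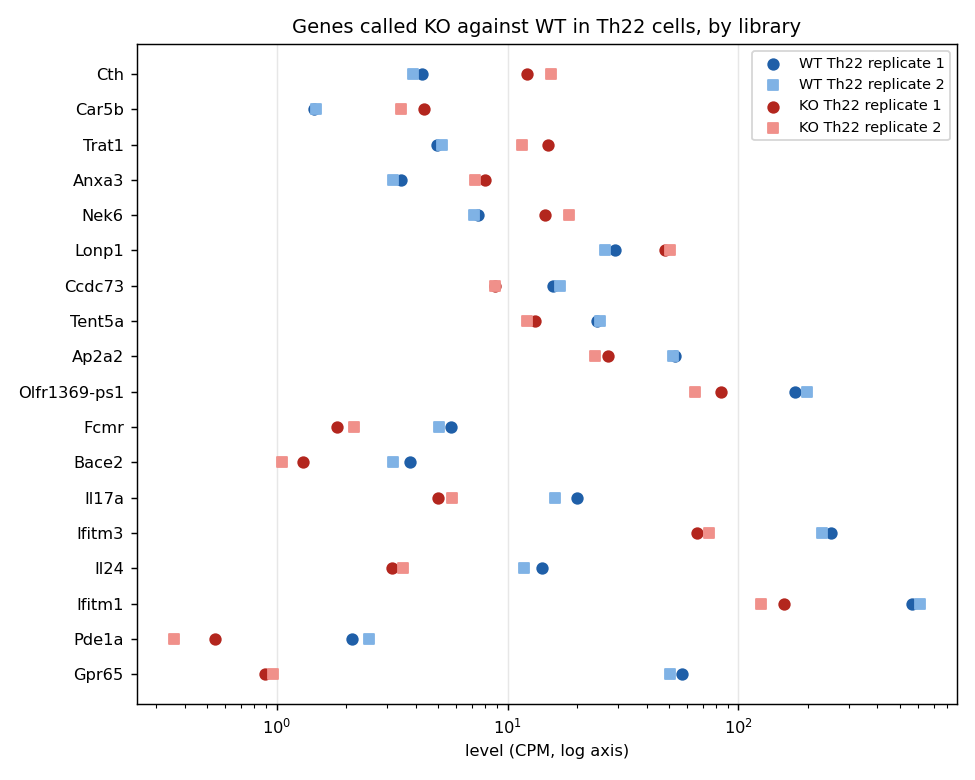
Level of 18 of the 20 called genes in each Th22 library, in CPM on a log axis. Blue points are the WT and red points the KO libraries, circles replicate 1 and squares replicate 2. The gene model without a name and Xcl1, at 0 in WT, are left out. For each gene the blue and red points lie apart, from a wide gap for Gpr65 (56.7 and 50.6 against 0.887 and 0.964) to a small one for Lonp1 (29.3 and 26.5 against 47.9 and 50.5).

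The lower genes were led by members of the Ifitm family, small interferon-induced transmembrane proteins that restrict the entry of viruses. Ifitm1 (chr7:140967221-140969825, plus strand) was at 563 and 612 CPM in WT and 157 and 125 in KO, a log2 fold change of -2.06 ± 0.14 (edgeR adjusted p = 0.00323). Ifitm3 (chr7:141009586-141010770, minus strand) was at 252 and 229 CPM in WT and 66.5 and 74.2 in KO, a log2 fold change of -1.77 ± 0.13 (adjusted p = 0.00323). For both genes the KO libraries lay close together and far below both WT libraries, and both calls were lost in 1 setting of 22, without WT1 (adjusted p = 0.0583 and 0.0837). Ifitm2, 11233 bases from Ifitm1, was at 383 and 342 CPM in WT and 202 and 223 in KO and missed the threshold (-0.77 ± 0.14, adjusted p = 0.137). Of the 7 genes of the family, 6 were tested, 2 passed and 5 were lower by sign. Ifitm6 was at 1.29 and 1.27 CPM in WT and 0.0865 and 0.567 in KO (-1.93 ± 0.59, adjusted p = 0.291), Ifitm5 had -0.83 and Ifitm10, the one higher by sign, 0.24. The genes are similar in sequence, and how reads were divided between them is uncertain.

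The lower cytokines were Il17a and Il24. Il17a, which attracts neutrophils through the cells it acts on, was at 20.1 and 16.0 CPM in WT and 5.02 and 5.73 in KO, with a log2 fold change of -1.75 ± 0.18 (edgeR adjusted p = 0.0203). Its call was lost in 10 of the 22 settings, among them every fit without 1 of the 4 Th22 or 1 of the 2 WT Th17 libraries, with adjusted p up to 0.324, while the log2 fold change stayed between -1.91 and -1.57. Il24, a cytokine of the IL-10 family, was at 14.1 and 11.8 CPM in WT and 3.16 and 3.54 in KO (-1.95 ± 0.14, adjusted p = 0.00323, or 0.0583 without WT1). Its neighbour Fcmr, which encodes the receptor for the Fc part of IgM, lies 1282 bases away on the opposite strand of chromosome 1, with the 3' ends of both genes facing each other. Fcmr fell too, from 5.68 and 5.05 CPM in WT to 1.82 and 2.16 in KO (-1.43 ± 0.17, adjusted p = 0.037). It is also on the list of B cell genes, whose sum was below WT in both KO libraries. Of that list 6 were tested, 6 were lower by sign and 1, Fcmr, was called. Both KO libraries lay below both WT libraries for 5 of the 6, against 21.8% of all genes. The part of B cells in the level of Fcmr was not tested.

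The other lower genes spanned several functions. Pde1a, a calmodulin-dependent phosphodiesterase that breaks down cAMP and cGMP, was low throughout, at 2.13 and 2.52 CPM in WT and 0.541 and 0.359 in KO (-2.37 ± 0.25, edgeR adjusted p = 0.0246). Tent5a, which extends poly(A) tails, was at 24.5 and 25.1 CPM in WT and 13.1 and 12.2 in KO (-0.97 ± 0.10, adjusted p = 0.0203). Ap2a2, a subunit of the AP-2 adaptor of clathrin-coated endocytosis, was at 53.3 and 52.1 CPM in WT and 27.3 and 24 in KO. Ap2a2 lies on chromosome 7, 551402 bases from Ifitm3. The protease Bace2 (3.79 and 3.18 CPM in WT, 1.30 and 1.06 in KO), Ccdc73 (15.7 and 16.8 against 8.85 and 8.81) and the olfactory receptor gene Olfr1369-ps1 (175 and 198 against 84.2 and 64.9) passed as well. The symbol of the last marks a pseudogene, while the GENCODE annotation lists it as protein coding. Such a gene can share reads with related genes, so its level is uncertain.

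Higher genes included enzymes of amino acid and mitochondrial metabolism. Cth, cystathionine gamma-lyase, which makes cysteine from cystathionine, was at 4.25 and 3.88 CPM in WT and 12.2 and 15.4 in KO (1.76 ± 0.17, edgeR adjusted p = 0.0203). Lonp1, the ATP-dependent protease of the mitochondrial matrix, was at 29.3 and 26.5 CPM in WT and 47.9 and 50.5 in KO (0.82 ± 0.10, adjusted p = 0.0409). Car5b, a mitochondrial carbonic anhydrase, an enzyme that interconverts carbon dioxide and bicarbonate, was at 1.45 and 1.49 CPM in WT and 4.33 and 3.44 in KO (1.40 ± 0.17, adjusted p = 0.0409). The kinase Nek6 (7.47 and 7.13 CPM against 14.5 and 18.5), the annexin Anxa3 (3.46 and 3.18 against 8.03 and 7.26) and Trat1 (4.93 and 5.20 against 14.9 and 11.6) were also higher. Xcl1, a chemokine that attracts cross-presenting dendritic cells, had 0 UMIs in both WT libraries and 35 and 52 in the KO libraries. Against a floor of 3 counts per library it was at least 13.4-fold higher in the KO (adjusted p = 0.0456). Of the clusters described below, Xcl1 could be tested in 2. It passed only in cluster 7, which has the gamma-delta receptor gene Trdc and the granzyme Gzmc among its leading genes.

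Beyond the calls, 5657 genes (42.2% of those tested) had KO and WT libraries that did not overlap, 2730 with both KO libraries above (20.4%) and 2927 with both below (21.8%). Among genes at 10 CPM or more on average that missed the threshold without overlap, those with the smallest p had adjusted p between 0.0635 and 0.144. The higher ones were led by Nkg7, a cytotoxic granule protein, at 14.8 and 20.4 CPM in WT and 42.6 and 58.5 in KO (1.52), and Asns, asparagine synthetase, at 72.1 and 69.3 against 125 and 113 (0.75). Others were Nupr1, a stress-induced chromatin protein (1.33), Phgdh, the first enzyme of serine synthesis (0.59), Pdcd1lg2, the PD-1 ligand PD-L2 (0.91), Tasp1 (0.85), the protease Ide (0.71), Angptl6 (0.58), Ybx3 (0.52) and Rnh1 (0.46). On the lower side were Pdcd4, an inhibitor of translation, at 237 CPM in both WT libraries and 116 and 114 in KO (-1.04, adjusted p = 0.113), and Tnrc6a, a component of the microRNA silencing complex, at 119 and 122 against 62.5 and 65.7 (-0.91, adjusted p = 0.132). Their KO libraries differed from each other by far less than from WT. Hif1a, the oxygen-regulated transcription factor, was at 580 and 537 CPM in WT and 417 and 366 in KO (-0.51), and Ermn (-0.88), Nebl (-0.78), Sdcbp2 (-0.79), Dhx40 (-0.73), Snrnp27 (-0.53) and the antiproliferative gene Btg1 (-0.50) completed the set beside Ifitm2.

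The helper cell programs were described by lists, each set against all genes tested. The Th17 list had 17 tested members with a median of -0.01. Il17a was called, 5 members had an unadjusted p under 0.05 and a lower level, and none had one with a higher level. Il17f, the partner of Il17a and 42649 bases from it, was at 31.7 and 29.9 CPM in WT and 7.20 and 14 in KO, without overlap, and did not pass (-1.53 ± 0.40, edgeR adjusted p = 0.246). Tmem176b (7.58 and 6.15 CPM in WT, 3.01 and 3.23 in KO) and Tmem176a (-1.04) encode paired membrane proteins. Among regulators and receptors, Rora had 0.00, the Th2 factor Gata3 -0.02, Il23r, a subunit of the IL-23 receptor, 0.19, and Il1r1, the IL-1 receptor, -0.25. None of these passed.

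No gene of the Th22 and AHR list was called. Il22 was at 35.4 and 29.98 CPM in WT and 16.7 and 32.0 in KO, so that 1 KO library lay below WT and the other within it (-0.42 ± 0.29, edgeR adjusted p = 0.618). Ahr itself was at 8.35 and 9.59 CPM in WT and 13 and 6.96 in KO. Cyp1a1, the enzyme most strongly induced by AHR ligands, was at 9.49 and 13.6 CPM in WT and 14.0 and 8.40 in KO. In both genes the KO libraries lay on either side of WT. Of the 11 tested members of the list, 2 were higher by sign, 0 passed, and 2 had an unadjusted p under 0.05, both lower, with a median of -0.13, or -0.41 without KO1 and -0.03 without KO2. Cyp1b1 had -0.55, from -1.36 to -0.03 over the alternative settings, with overlapping libraries. The antioxidant regulator Nfe2l2 had -0.38, the AHR repressor Ahrr -0.23 and Tiparp -0.09. Other cytokines were Il21 (45.9 and 50.9 CPM in WT, 51.4 and 44.9 in KO), Il2 (0.47), Tnf (0.21), Csf2 (0.78) and Ifng, which was low and uneven at 0.680 and 4.01 CPM in WT and 0.541 and 1.08 in KO. None passed. The levels of Il10 and Foxp3 were too low to be tested, at 0.0567 to 0.110 and 0 to 0.170 CPM.

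No member of the lists for signalling downstream of the receptor was called. In the list of Gs, cAMP and protein kinase A machinery, 0 of 29 tested members passed, 1 was higher and 1 lower at an unadjusted p under 0.05, and the median was -0.01, or -0.10 without KO1 and 0.02 without WT2. Ptger2, the Gs-coupled receptor for prostaglandin E2, was at 15.6 and 18.3 CPM in WT and 27.7 and 22.1 in KO (0.56), and the adenylyl cyclase Adcy7 had -0.32. Pde1a, described above, was not on this list. Among 29 CREB and cAMP response genes, 0 passed, 3 were higher and 1 lower at that level, and the median was 0.03, or -0.01 without WT2. The higher ones included the regulator of G protein signalling Rgs1 (0.88) and the growth factor Areg (0.77). Some other known targets had smaller values: Crem 0.05, Pde4b -0.17, Pde4d -0.14 and Nr4a1 -0.38. Over all members of this list the log2 fold change ran from -0.52 to 1.43. Acid-handling genes were described next. The list of acid and lactate transport had 0 of 17 called and a median of -0.09, or 0.05 without KO1 and -0.20 without KO2. Its member Slc4a2, a bicarbonate exchanger, had -0.40. The V-ATPase is the pump that acidifies lysosomes. Of its 17 listed subunits, 14 were higher by sign and 0 called, with a median of 0.15. Both KO libraries lay above both WT libraries for 10 subunits and below for 1, against 20.4% and 21.8% of all genes. At an unadjusted p under 0.05, 2 subunits were higher and 1 lower. Members of the V-ATPase list included Atp6ap2 (0.40) and Atp6v0b (0.33) above WT and Atp6v1e1 (-0.34) below. The subunit Atp6v0d2 was not on that list. It was at 74.4 and 91.2 CPM in WT and 60.2 and 23.5 in KO (-0.99) and did not pass.

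Many genes of amino acid synthesis and import were higher in the KO by sign. The group described is the one that the transcription factor ATF4 induces when amino acids run short or proteins misfold. Of 33 tested members, 28 were higher by sign, 1 (Cth) was called, 12 were higher and 3 lower at an unadjusted p under 0.05 (against 5.5% and 6.2% of all genes), and 20 had both KO libraries above both WT libraries, against 20.4% of all genes. The median was 0.34, or 0.45 without KO1 and 0.16 without KO2. After Cth and Nupr1 the highest fold change was that of Chac1, which degrades glutathione (0.83, edgeR adjusted p = 0.444). It ran from 0.11 to 1.31 over the alternative settings and passed in none. Below it and Asns came the last enzyme of serine synthesis Psph (0.64), Bcat1 (0.60), Phgdh (0.59), the leucine transporter Slc7a5 (0.53) and Psat1 (0.49). Atf4 itself had 0.22 (-0.02 without KO1), and Slc38a2 (-0.39), Ddit4 (-0.38) and the seryl-tRNA synthetase Sars (-0.26) went the other way. All 4 pairs of a KO and a WT library gave a median above 0, from 0.15 to 0.36.

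ATF4 is known to bind composite elements near the start of these genes, so promoter windows of 250 bases before the start were searched on both strands for TGATGNAA, in sequences taken from RefSeq (GRCm38.p6). Of the 33 members, 27 had a promoter in that table, and 8 of the 27 (29.6%) held a match, against 3.91% of all 27025 genes in it and 2.47% of the 10125 tested genes in it. Since the list was made of genes that ATF4 induces, this share describes the list and not the difference between KO and WT. The windows of 30 bases around the matches are shown for the 3 genes with a match that had the highest log2 fold changes, none of which passed over all cells. Capitals mark the match, and each is written 5' to 3' on the strand of the gene.
Asns (chr6:7693214-7693243, minus strand, 23 bases before the start): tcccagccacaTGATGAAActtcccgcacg
Nupr1 (chr7:126625562-126625591, minus strand, 110 bases before the start): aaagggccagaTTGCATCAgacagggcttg
Chac1 (chr2:119351038-119351067, plus strand, 193 bases before the start): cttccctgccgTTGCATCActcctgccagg
Asns read the motif forward and the other two in reverse complement. Other members with a match included Gars (0.13), Pycr1 (0.17), Slc7a11 (0.26) and Vldlr (0.27), none of which passed. The full cAMP response element TGACGTCA was in 0 of these 27 members and in 2 of the 21 CREB list members with a promoter (Areg and Dusp1). It was in 1.77% of all genes with a promoter and 3.04% of such tested genes. A match is a description of the letters in the window.

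Most genes of protein folding, the nuclear part of the respiratory chain and the ribosome were higher in the KO by sign, by small amounts. All 13 tested heat shock genes were higher by sign, with a median of 0.32, 5 at an unadjusted p under 0.05 and 0 called. Hsp90ab1 (0.36) and Hspa8 (0.34), the main cytosolic chaperones, were among them. Of 20 chaperones and unfolded protein genes of the endoplasmic reticulum, 16 were higher by sign and 0 passed, with a median of 0.19 and the smallest p-values for Herpud1 (0.44), Calr, Dnajb11 and Pdia6 (0.43 each). In mitochondria, 11 of 14 proteases and chaperones were higher by sign with a median of 0.22: besides Lonp1, which passed, the chaperone Hspe1 had 0.42 and Dnaja3 0.40, and Hspa9, which pulls proteins into the matrix, 0.50. Nuclear genes of the respiratory chain were higher by sign in 39 of 41, with a median of 0.14 and 0 called. Both KO libraries lay above both WT libraries in 28 and below in 1, against 20.4% and 21.8% of all genes. Atp5g1, a subunit of the ATP synthase, was at 211 and 189 CPM in WT and 260 and 289 in KO. Respiratory genes encoded in the mitochondrial genome did not share this: 8 of 13 were lower by sign, 0 passed, and the median was -0.04. That median was -0.30 and -0.23 in the pairs with KO1 and 0.07 and 0.15 in those with KO2, and within the clusters described below it was below 0 in 10 of 10.

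Cytosolic ribosomal proteins were the largest such group. Of 55, 48 were higher by sign, but 0 passed and the median was 0.26. At an unadjusted p under 0.05, 40 were higher and 2 lower, against 5.5% and 6.2% of all genes. Both KO libraries lay above both WT libraries for 47 and below for 3, against 20.4% and 21.8% of all genes. Rps18 had 0.36, Rplp1 0.34, Rpl14 0.32 and Rplp0 0.28. By library pair the list's median was 0.16 and 0.18 for KO1 and 0.33 and 0.36 for KO2. Ribosomal protein genes are among the most abundant transcripts in a cell and share many pseudogenes, so their counts are less certain than their depth implies. Upper-quartile scaling moved the median of all genes by -0.031, and under it the median was 0.23 for this list and 0.31 for the ATF4 list. The part of scaling in these values was not tested.

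Interferon response genes outside the Ifitm family were mostly higher by sign. Of 35 tested, 32 were higher by sign, 0 passed, and 8 were higher and 2 lower at an unadjusted p under 0.05, with a median of 0.16, or 0.01 without WT1 and 0.35 without WT2. Isg15, a ubiquitin-like protein, was at 5.57 and 8.13 CPM in WT and 14.2 and 19.7 in KO (1.30, edgeR adjusted p = 0.144), and Ifih1, a sensor of double-stranded RNA, had 0.63, while the sensor Ddx58 had -0.40 and Dtx3l -0.55. The list's median by library pair was 0.25 and -0.03 for KO1 and 0.40 and 0.13 for KO2, so 1 pair of 4 went against the rest. In the 29 members with a promoter in the RefSeq table, the core of the interferon-stimulated response element, a pair of GAAA repeats set 2 bases apart, was searched on both strands. It was found in 14 (48.3%), against 3.46% of all genes with a promoter and 3.2% of such tested genes. As with the ATF4 list, this share describes the list and not the difference between KO and WT. The window of Isg15, described above, shows such a pair, with the first of its 3 overlapping matches in capitals.
Isg15 (chr4:156200877-156200906, minus strand, 78 bases before the start): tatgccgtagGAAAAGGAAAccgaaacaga
Of the 9 called lower genes with a promoter in the table, Ccdc73 held this motif and Ifitm3 did not, and Ifitm3 held TGATGNAA. Antigen presentation by MHC class I had 10 of 13 members higher by sign, 2 at an unadjusted p under 0.05 and 0 called, with H2-Q7 (0.51), H2-D1 (0.37), B2m (0.34) and H2-K1 (0.31). Its median was 0.22, and by library pair 0.21 and -0.04 for KO1 and 0.52 and 0.15 for KO2. WT1 lay below WT2 by a median of 0.32 over this list.

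Most genes of naive and memory T cells were lower in the KO by sign. Of 17 tested, 11 were lower by sign, 0 passed, and the median was -0.25. At an unadjusted p under 0.05, 7 were lower, against 6.2% of all genes, and none was higher. Both KO libraries lay below both WT libraries for 8 and above for 2, against 21.8% and 20.4% of all genes. S1pr1, the receptor for egress from lymph nodes, had -0.63, Klf2, which controls it, -0.40, and Tcf7, a factor of long-lived T cells, -0.39. The 4 library pairs gave medians from -0.38 to -0.19. The receptor and identity genes were balanced, with 9 of 20 higher by sign, Trat1 called, Cd5 at 0.42, Cd6 at 0.32 and Cd4 at -0.36.

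Chemokines and their receptors had values on both sides of WT. Xcl1 passed, Ccl3 was at 1.40 and 1.29 CPM in WT and 3.74 and 10.6 in KO (2.42 ± 0.49, edgeR adjusted p = 0.175), and Ccl4 was at 8.99 and 10.4 in WT and 17.3 and 54.6 in KO (1.89). Both were well above WT in KO2 and less so in KO1, as was the sum of CD8 T cell genes given above, whose part in these values was not tested. Ltb4r1, the leukotriene B4 receptor, was at 37.0 and 37.2 CPM in WT and 15.6 and 19.7 in KO (-1.07). The Th1 list had 0 of 13 called, with its master factor Tbx21 low at 1.12 and 1.57 CPM in WT and 2.40 and 3.46 in KO (1.13 ± 0.34, adjusted p = 0.278) and Runx3 at -0.30. NF-kB targets were higher by sign in 12 of 16, with 5 at an unadjusted p under 0.05, all higher, led by the survival genes Bcl2a1d (1.20) and Bcl2a1b (1.13), near-identical copies whose reads cannot be assigned with certainty. Gzmb, the cytotoxic protease granzyme B, was at 199 and 211 CPM in WT and 208 and 399 in KO. Of 52 genes of the G2/M phase, 40 were lower by sign, 5 lower at an unadjusted p under 0.05 and 0 called. Gas2l3 had -0.77, Ckap2 -0.75, G2e3 -0.55 and Lbr -0.52. Both KO libraries lay below both WT libraries for 11 and above for 1, against 21.8% and 20.4% of all genes. The list's median was -0.11, or 0.01 without the deposited clusters 3 and 10 and 0.02 without WT2 or without KO2. It ran from 0.14 to -0.48 over the library pairs.

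**Figure D2:**
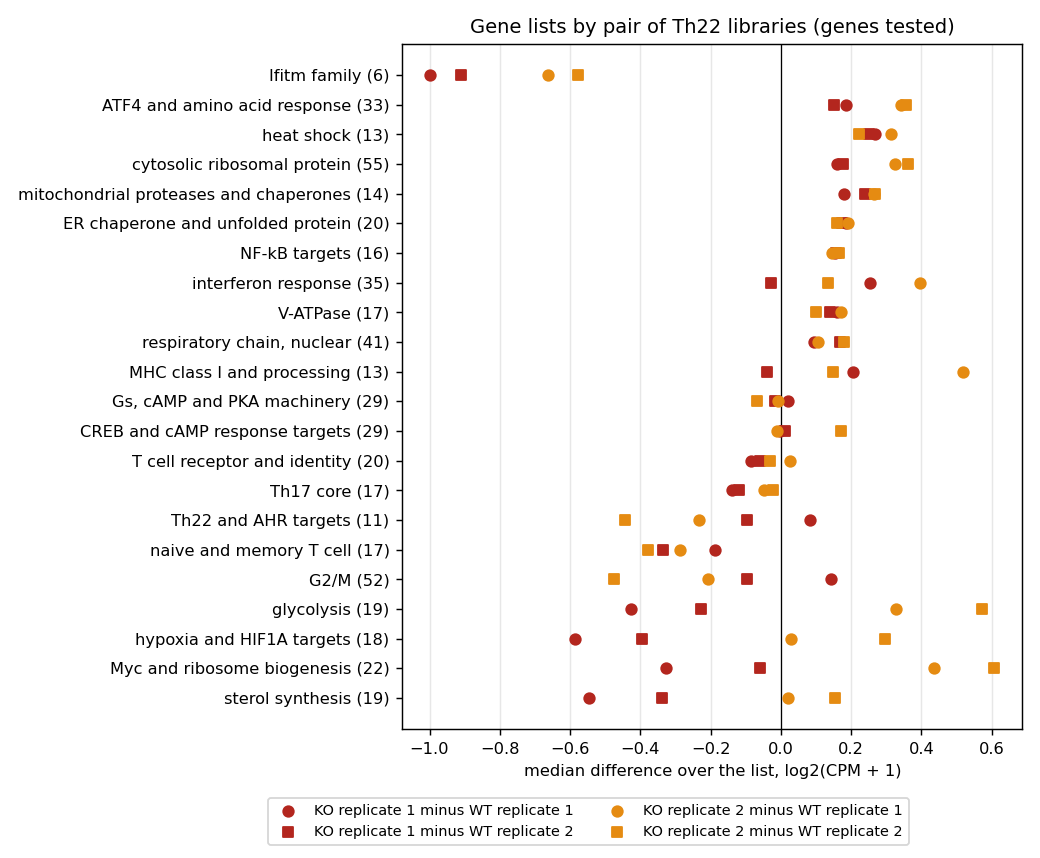
Median difference of each gene list, in log2(CPM + 1), for each of the 4 pairs of a KO and a WT Th22 library. Red marks KO replicate 1 and orange KO replicate 2, circles are differences from WT replicate 1 and squares from WT replicate 2, and the number of tested genes is in brackets. The ATF4, heat shock and ribosomal lists lie above 0 in all 4 pairs, and glycolysis, hypoxia, Myc and sterol synthesis lie below 0 for KO replicate 1 and above 0 for KO replicate 2.

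The KO libraries differed from each other more than the WT libraries did. Over 6296 genes with at least 10 CPM on average, WT1 and WT2 differed by a median of 0.0950 in log2(CPM + 1), and 5 genes differed by 2-fold or more. KO1 and KO2 differed by a median of 0.203, and 79 genes by 2-fold or more. KO against WT gave 0.151 to 0.199 depending on the pair, so the KO libraries were as far from each other as from WT. Across these genes, the difference KO1 minus WT1 had a Pearson r of 0.00697 with KO2 minus WT2 (Spearman rho -0.0769, 48.6% of genes with the same sign). KO1 minus WT2 had r = 0.425 with KO2 minus WT1 (rho 0.344, 63.8% with the same sign). Genes are not independent replicates, and these values describe 4 libraries.

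**Figure D3:**
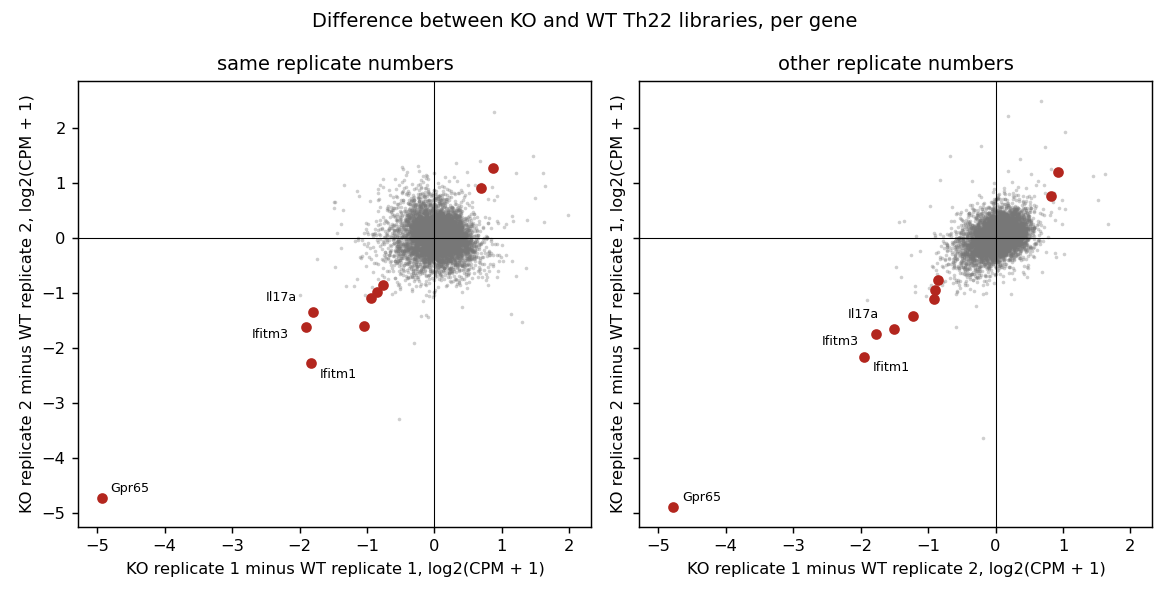
Difference between a KO and a WT Th22 library in log2(CPM + 1), for each of 6296 genes, in 1 pair of libraries (x axis) against the other pair (y axis). Left, libraries paired by the same replicate number (r = 0.00697). Right, by the other number (r = 0.425). Grey points are genes and red points the called genes in this range of levels, which lie along the diagonal away from the centre, Gpr65 farthest.

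The difference between the KO libraries was also seen in gene lists. Of 56 lists with at least 3 tested members, 17 had a median above 0 in all 4 library pairs, 9 below 0 in all 4, and 30 were mixed. Of the mixed lists, 10 were below 0 for KO1 and above 0 for KO2 in both pairs, and 3 the reverse. The glycolysis list had medians of -0.43 and -0.23 for KO1 and 0.33 and 0.57 for KO2, hypoxia and HIF1A targets -0.59 and -0.40 against 0.03 and 0.30, Myc and ribosome biogenesis -0.33 and -0.06 against 0.44 and 0.61. Egln3, an oxygen-sensing hydroxylase, was at 84.0 and 60.8 CPM in WT, 38.0 in KO1 and 104 in KO2. Tpi1, a glycolytic enzyme, was at 390 and 270 CPM in WT, 223 in KO1 and 523 in KO2. In the other direction, Zeb1, a transcriptional repressor, was at 37.7 and 41.6 CPM in WT, 77.3 in KO1 and 31.0 in KO2, and Tnfaip3, an inhibitor of NF-kB, at 8.31 and 11.7 in WT, 20.5 in KO1 and 6.83 in KO2. A mean over the KO libraries describes neither of them for these lists, and 0 of 19 glycolysis genes and 0 of 18 hypoxia genes passed. KO1 also had the highest median UMIs per cell and WT1 the lowest, and with the median depth per cell in the model 5 genes were called between the genotypes in place of 20.

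Differences were then tested within the authors' deposited clusters, which are named here by number and by leading genes. The 10 clusters with at least 50 kept cells in each of the 8 libraries gave 221 gene and cluster pairs past the threshold, all with the sign seen over all cells. The counts over all cells include those of each cluster, so agreement in sign, here and below, was in part built in. The 10 genes that define a cluster are not given as results in it. Without them the calls came to 150 genes, of which 31 passed in 2 or more clusters and 5 in 5 or more. Gpr65 was lower in clusters 0 to 8, with log2 fold changes from -7.22 to -5.40. Ifitm3 was lower in 8 clusters, from -2.28 to -1.03, Ifitm1 in 6 and Olfr1369-ps1 in 6. Pdcd4, which missed the threshold over all cells, passed in 5 clusters, 1, 2, 4, 7 and 8. Over the 20 genes called in all cells there were 144 pairs that could be tested, 142 had the same sign and 55 passed, and the exceptions were Anxa3 and Trat1 in cluster 7. Without WT1 the count of 221 fell to 37 and without WT2 to 43, and it rose to 624 without KO1.

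The number of calls differed by cluster, as did the number of cells behind it. Cluster 1 (14534 cells), led by Ccl4, Hivep3, Nolc1 and Srm, had 137 calls, 60 higher and 77 lower (1.2% of its genes). Of its 33 ATF4 genes, 30 were higher by sign and 11 passed, all higher, with a median of 0.50. They included Cth (2.04), Nupr1 (1.96), Asns (0.96), Trib3, an ATF4-induced pseudokinase (0.77), Slc7a5 (0.83) and Psph (0.73). Among its lower genes were Il24 (-2.14), Il17f (-1.79), the matrix gene Ecm1 (-1.21), Ap2a2 (-1.15), Ltb4r1 (-1.06), Gpr183, an oxysterol receptor that guides T cells (-0.94), and S1pr1 (-0.76). The PD-1 ligands Pdcd1lg2 (0.95) and Cd274 (0.78) were higher. Cluster 0 (20561 cells), led by Vps37b, Atp6v0d2 and Klf2, had more cells and 5 calls (0.0422%), so the number of cells did not order the counts.

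Cluster 2 (5250 cells) was led by Il17a, Il17f, Il22 and Il24 and held 26 calls (0.247%). Since those cytokines, Ifitm1 and Ifitm3 define it, they are not given there, and because several of them differed between the genotypes its share of cells is not compared between them. Its other calls included Nek6 (1.71), Cth (1.88), Nkg7 (2.11), Nupr1 (1.45), Asns (0.77) and Trat1 (1.39) above WT, and the collagen Col4a2 (-2.73), Ecm1 (-1.29) and Tnrc6a (-1.0) below. Outside cluster 2, Il17a was not called in any cluster in which it could be tested, with log2 fold changes of -1.29, -1.92, -1.78 and -0.92 in clusters 0, 1, 3 and 8.

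In the smaller clusters the calls were few. Cluster 3 (4191 cells), led by genes of mitosis such as Prc1, Mki67 and Plk1, had 4 (0.0409%): Gpr65, Ifitm1 (-2.27), Ifitm3 (-1.72) and Olfr1369-ps1. Cluster 4 (1376 cells), led by Cstdc4, Csta2 and Gap43, had 18 (0.23%), with Nupr1 (1.21) and Ifi27 (1.28) higher, and Gpr183 (-1.27), the glycolytic enzyme Hk2 (-1.20) and Hif1a (-0.76) lower. Cluster 5 (985 cells), led by the metallothionein Mt2, Gstt1 and the metallothionein Mt1, had 6 (0.0901%), with Ifitm1 at -2.79, Nkg7 at 2.80 and Tnrc6a at -1.26. Cluster 6 (1157 cells), led by Crip2, had 4 (0.0542%), among them Ifitm1 (-2.50) and Ifitm3 (-1.77). Cluster 7 (1161 cells), with Trdc, Tcrg-C4 and Gzmc among its leading genes, had 13 (0.169%), with Xcl1, Isg15 (2.11) and Nupr1 (1.74) higher and Il24 (-2.87), Ap2a2 (-1.54) and Pdcd4 (-1.20) lower. Cluster 8 (854 cells), led by the chemokine Ccl5 and the interferon response genes Isg15 and Ifit1, had 6 (0.0914%), with Ifitm3 (-2.28), Pdcd4 (-1.21) and Rbpj, the nuclear effector of Notch (-0.84), lower. Cluster 9 (379 cells), led by S100a6, Dcxr and Rps26, had 2 (0.091%), both among its 10 leading genes.

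**Figure D4:**
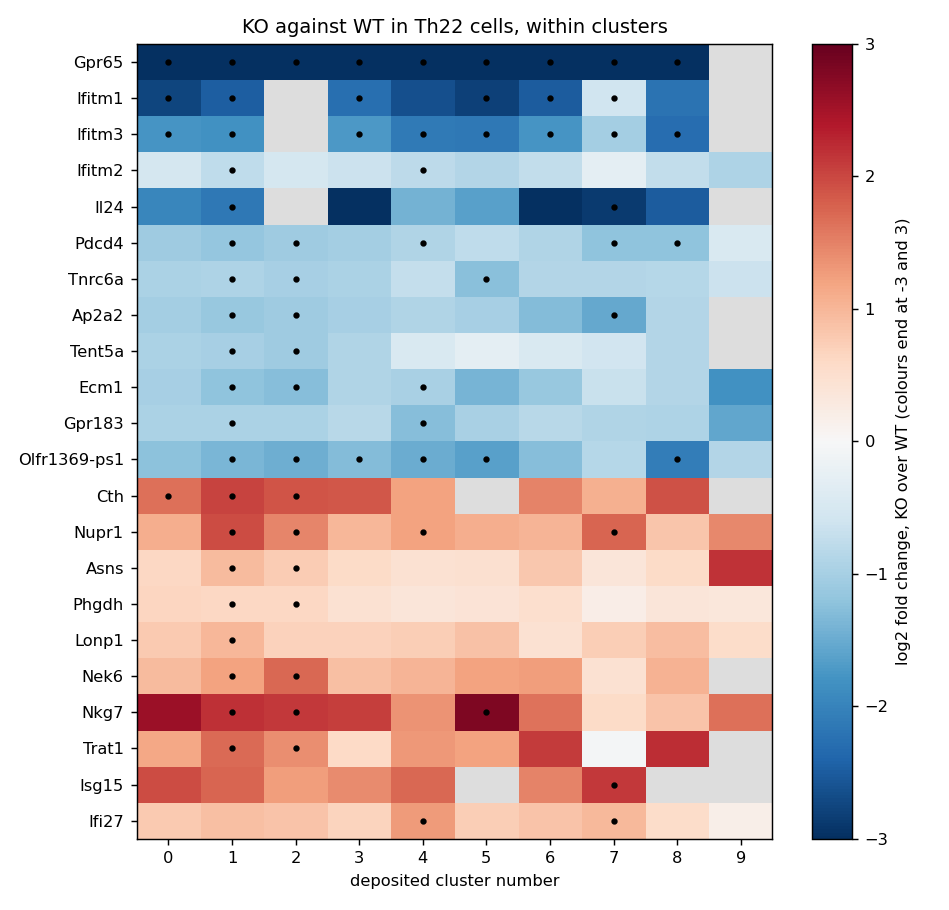
Log2 fold change of KO over WT for selected genes (rows) within each deposited cluster (columns) of Th22 cells, blue for lower and red for higher, with colours ending at -3 and 3. Dots mark pairs past an edgeR adjusted p of 0.05, and grey marks pairs not tested or genes that define the cluster. Gpr65, Ifitm1 and Ifitm3 are blue across the columns, Cth and Nupr1 red, and cluster 1 holds the most dots.

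Of 55 lists, 25 had a median of the same sign in every cluster where their members could be counted, and 30 did not. The ATF4 list had a median above 0 in all 10 clusters, from 0.14 in cluster 3 to 0.50 in cluster 1, and the ribosomal list in all 10, from 0.13 to 0.33. The interferon list was above 0 in all 10 as well, from 0.06 in cluster 2 to 0.41 in cluster 9, where 4 members were tested. Naive and memory genes were below 0 in all 10. Among lists of mixed sign, the median was above 0 in 5 of 10 clusters for G2/M (-0.61 to 0.19), 4 for CREB targets (-0.42 to 0.13), 6 for the Gs and cAMP machinery (-0.07 to 0.09) and 8 for the V-ATPase (-0.13 to 0.22). The clusters share the same 4 libraries, so they are not replicates of one another.

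Th17 cultures of the same genotypes gave a comparison in other libraries. The lower genes were lower there too in most cases: Il17a had -1.72 and Il24 -1.98, close to their Th22 values of -1.75 and -1.95, while Pde1a had -2.95 and Bace2 -1.64. For several genes the Th17 difference was near 0. Ccdc73 had -0.05, Olfr1369-ps1 0.05, Tnrc6a -0.02, Ermn 0.03 and Pdcd4 -0.15 in Th17, against -0.88, -1.32, -0.91, -0.88 and -1.04 in Th22. Tested as an interaction, 0 of 13412 genes differed between the cultures by edgeR (566 at an unadjusted p under 0.05), and DESeq2 called 12.

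Libraries of the same genotype and replicate number deviated together across the cultures. With genotype and number as a block, which leaves 2 residual degrees of freedom, 550 genes (4.1%) had a genotype difference that differed between Th22 and Th17 (edgeR adjusted p under 0.05), 206 in the higher and 344 in the lower direction for Th22. In that fit the difference of the log2 fold changes, Th22 minus Th17, was 0.86 for Cth (adjusted p = 0.003), -0.72 for Ap2a2 (0.003), -0.83 for Ccdc73 (0.002), -1.39 for Olfr1369-ps1 (0.002), -0.91 for Tnrc6a (0.003), -0.92 for Ermn (0.001), -0.72 for Snrnp27 (0.002) and -0.90 for Pdcd4 (0.020). Klf2 differed by 0.80 (0.003), with -0.40 in Th22 and -1.20 in Th17. Among ribosomal proteins 7 of 55 passed, all higher in Th22, the list's median being -0.10 in Th17, and among MHC class I genes 7 of 13, with H2-D1 at 0.62 (0.002). The calls rest on the numbers marking a shared source, which the labels do not state.

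**Figure D5:**
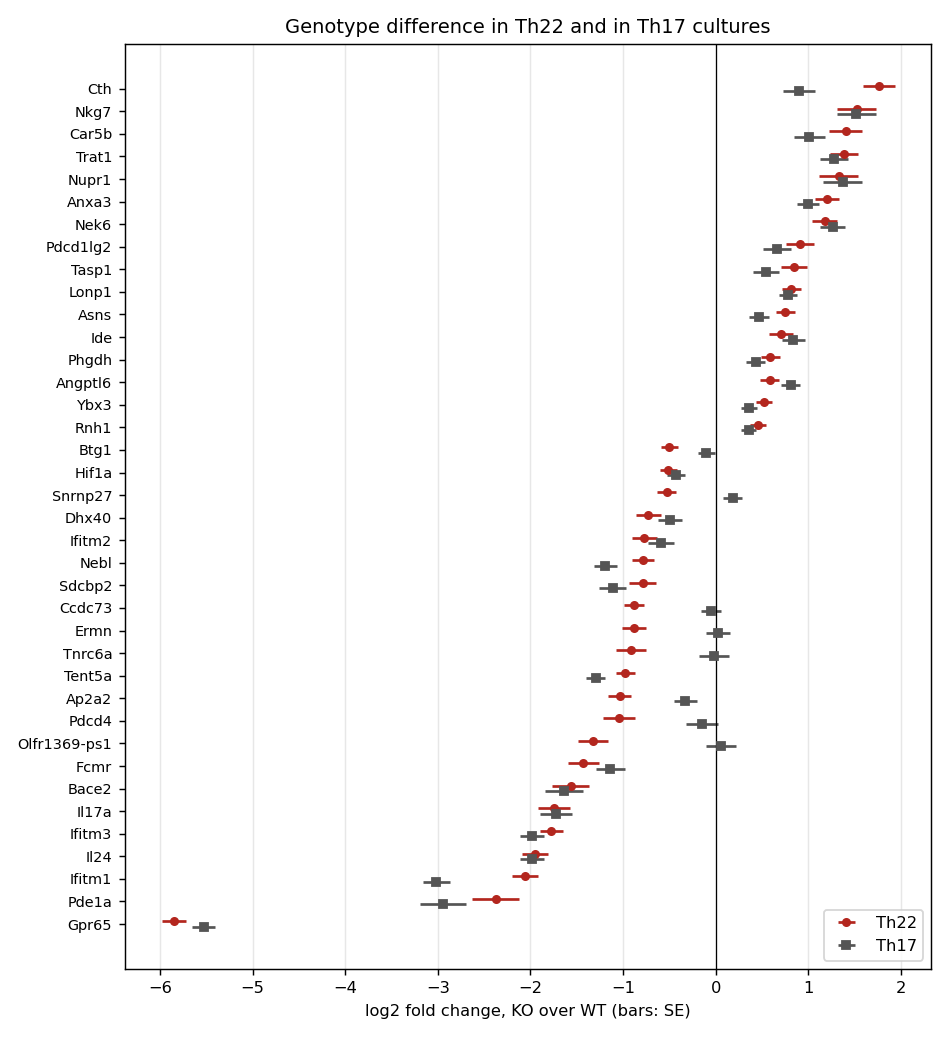
Log2 fold change of KO over WT in Th22 (red circles) and Th17 cultures (grey squares), with bars for 1 SE, for the called genes and those that just missed the threshold. Most genes have both points on the same side of 0, Il17a at -1.75 and -1.72, and Ccdc73, Ermn, Tnrc6a and Olfr1369-ps1 have a Th17 point near 0.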

How the data were processed

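CD4+ T cells from mouse spleen were measured by single-cell RNA sequencing with the 10x Genomics 3' v3 kit, per the labels' protocols. The authors deposited 1 matrix of UMI counts per gene and cell, not normalized, with 16649 genes and 104660 cells, and a cell table with each cell's library, genotype, culture, cluster and percent of mitochondrial UMIs (deposited values reach 9.99). The submitters' processing notes name Cell Ranger 5.0.1, Seurat and mm10, with no role given. The filtering and clustering steps are not given in the sources used here.

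Counts were summed per library over cells with at least 500 genes and tested with edgeR 4.0.16 (R 4.3.3): TMM, filterByExpr, robust quasi-likelihood F test, 1 mean per group over all 8 libraries (4 residual degrees of freedom), two-sided, Benjamini-Hochberg at 0.05 over all 13412 genes, or over the genes of a cluster. SEs are those implied by the test. CPM were computed here from TMM-scaled totals, and levels are not per length, so they are compared between libraries and not between genes. Summed over cells, fewer expressing cells and less RNA per cell cannot be told apart. Doublets were kept. Leaving out the 8% of cells with most UMIs was an alternative. The sizes of the estimates were checked before use on simulated counts, drawn independently with the same spread for every gene. Deviations shared between libraries and the fits with blocks were not simulated.

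Same-numbered KO and WT Th22 libraries did not deviate together (r = -0.555 over 6339 genes), whereas Th22 and Th17 libraries of 1 genotype and number did (r = 0.641 in WT and 0.883 in KO), so these 4 pairs were taken as paired, from the data and not the labels, and the former were not. Positions come from GENCODE M21 by symbol (98.3% matched 1 gene).

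The members, the 57 gene lists and the rule for named genes were chosen with earlier results of these data known. The rule takes the genes called, the 10 each way that missed the threshold by least at 10 CPM or more without overlap, up to 4 members of each list described, fixed key genes, up to 3 genes each way per cluster and up to 5 each way of the interaction, leaving out unnamed gene models and receptor segments. A few items it would name are left out. Other genes named within lists or clusters, genes near Gpr65 and genes that differ between the KO libraries were chosen after their values were seen. Alternatives covered normalization, filters, DESeq2 1.42.0, thinning to 1500 UMIs, a depth covariate, blocks and left-out libraries or clusters.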

Additional observations from a re-analysis of the deposited data

Results flagged for a closer look

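The genotype difference differed between Th22 and Th17 cultures for 10 genes in the fit with genotype and replicate number as a block, chosen as those with the smallest p each way, with Th22 minus Th17 log2 fold changes as follows. Vps37b, an endosomal sorting protein, differed by 0.99 (0.11 in Th22 and -0.89 in Th17), Dthd1 by 1.5 (0.13 and -1.38), the interferon gamma receptor Ifngr1 by 1.0 (0.09 and -0.94), Dgat1, a triglyceride synthase, by 0.7 (-0.37 and -1.08) and Ifitm1 by 0.95 (-2.06 and -3.02). Psmc1 differed by -0.92 (-0.55 and 0.36), Tex10 by -0.89 (-0.42 and 0.47), Zdhhc21, a palmitoyltransferase, by -1.02 (-0.53 and 0.48), Nmt2, a myristoyltransferase, by -1.21 (-0.44 and 0.75) and the scaffold protein Ahnak by -0.89 (-0.29 and 0.59). Without the block 0 genes passed for this difference by edgeR, and DESeq2 called 12. Vps37b and Dthd1 were among the genes that differed most between the KO Th22 libraries: Vps37b was at 55.2 and 88.8 CPM in WT, 123 in KO1 and 33.4 in KO2, and Dthd1 at 8.66 and 16.6 in WT, 22.7 in KO1 and 5.12 in KO2.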

How the results depend on the processing

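The count of 20 genes called between KO and WT Th22 cells was 20 under RLE and upper-quartile scaling, 21 with no minimum of detected genes, 29 with no filter on low counts, 18 without clusters 3 and 10 and 19 without clusters 7, 9 and 11. It fell to 8 with at least 1000 genes per cell, 8 on cells thinned to 1500 UMIs, 11 without the 8% of cells with most UMIs, 5 with median depth per cell as covariate and 4 with only the 4 Th22 libraries fitted. DESeq2 gave 144. With 1 library left out it ran from 1 to 14, a group left with 1 library being assumed to vary like the others. With the replicate number as a block it was 6, and with the numbers crossed, an alternative chosen after seeing the data, 488. Those numbers were not taken as pairs in this comparison, because their deviations went in opposite directions. The count of genes whose difference changed between cultures was 0 in every setting other than DESeq2 (12) and the replicate block within genotype (550). The 221 calls within clusters became 188 with the replicate block, 183 with the Th22 libraries alone and 247 with clusters of at least 20 cells, and ran from 37 to 624 with 1 library left out. The cause was not tested in any of these.

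Some small differences changed sign when 1 library was left out. Over these fits the log2 fold change ran from -0.36 to 0.54 for Ahr, -0.53 to 0.04 for Ahrr, -0.02 to 0.43 for Atf4, -0.36 to 0.37 for Crem, -0.22 to 1.35 for Csf2, -0.45 to 0.28 for Cyp1a1, -1.29 to 0.85 for Dthd1, -0.10 to 0.08 for Gata3, -0.09 to 0.18 for Gpr132, -0.26 to 0.99 for Ifitm10, -2.28 to 0.26 for Ifng, -0.36 to 0.45 for Ifngr1, -0.13 to 0.89 for Il2, -0.10 to 0.09 for Il21, -0.71 to 0.23 for Pde4b, -0.83 to 0.34 for Pde4d, -0.12 to 0.12 for Rora, -0.72 to 0.81 for Slc7a11, -0.41 to 0.18 for Tiparp, -0.47 to 0.67 for Tnf, -0.15 to 0.60 for Vldlr and -1.10 to 0.77 for Vps37b. With the depth covariate signs changed for Ahr (-0.03), Crem (-0.11), Dthd1 (-0.60), Gata3 (0.14), Gpr132 (-0.06), Ifngr1 (-0.27), Rora (-0.10) and Vps37b (-0.50), and on thinned cells for Gata3 (0.12), Il1r1 (0.05), Il21 (0.00) and Il23r (-0.30). With the replicate block and the crossed numbers they changed for Dthd1 (-0.09 and -0.08), Vps37b (-0.11 and -0.12) and Rora (0.00 in both), and without the cells with most UMIs for Slc7a11 (-0.20), Ifng (0.17), Il21 (0.00) and Gata3 (0.01). In the remaining settings Gata3 had 0.00 to 0.04 and Rora -0.04, -0.03 or 0.00. None of these genes was called. Genes below about 1 CPM were limited by depth, since a library holds few of their UMIs.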
